A study of Mus musculus with 10 samples.

Results

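The subject here is 39 genes of spermatids and sperm, followed over all 10 microarrays of the study. The genes were chosen by symbol as a list of late spermatogenic genes, and each was read from the probe of that name with the highest mean signal. The array names 34821 genes, and all 39 symbols were found on it. They fell into 8 roles, with 5 genes of chromatin packing, 1 transcription factor, 7 genes of the acrosome, 3 of egg binding and fusion, 11 of tail structure and energy, 4 of the sperm calcium channel, 4 spermatid kinases and 4 of head shaping and other steps.

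Spermatids are the haploid cells that meiosis leaves, and they turn into sperm without further division. In doing so they replace histones first by transition proteins and then by protamines, which pack the chromatin tightly, and they build an acrosome over the nucleus and a tail with an axoneme, outer dense fibers and a fibrous sheath. Many of the genes involved are switched on after meiosis, with CREM as a main activator, and some of their mRNAs are stored before they are translated. Spermatogonia, the mitotic cells studied here, lie several steps earlier, and the list therefore asks how much late germ cell message the samples of spermatogonia held.

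Spermatogonia of 2 kinds were measured on 1-color Agilent whole mouse genome arrays, 1 array per sample. Cultured germline stem (GS) cells, a line of self-renewing spermatogonia grown from mouse testis, went 3 days without GDNF and FGF2 and spent the next 24 hr with FGF5 at 100 ng/mL (2 samples) or without it (2 samples). GFP+ cells were sorted from testes of Gfrα1-GFP mice aged 2.5 months, in which GFP is knocked into the Gfrα1 locus and marks GFRα1+ spermatogonia, the fraction that holds the stem cells. These mice were WT (3 samples) or Fgf5-/- (3 samples), the latter homozygous for the go-moja allele. All sorted samples carried the Gfrα1-GFP allele, and their background was C57BL/6. For the GS cells the labels give C57BL/6, while the study's methods give an intercross of C57BL/6 and ICR. Whether a sorted sample came from 1 mouse or from several was not given in the sources used here, so p-values measure the spread between these samples. Cultured and sorted samples were scanned on separate slides. Slide, strain, culture and cell source cannot be told apart in any difference between them.

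Every level below is a log2 signal relative to the 75th percentile of all probes on that array, so 0 marks that percentile and a step of 1 is 2-fold. A probe counts as detected on an array when the scanner software marked it as well above background. In bulk RNA of this kind, fewer cells of a type and less RNA per cell cannot be told apart. Precision is limited by the small number of arrays.

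The promoters of the 5 chromatin packing genes are shown first, since all 5 were called higher in sorted than in cultured cells. Each line is the 150 bases before the annotated start (RefSeq, GRCm38.p6), 5′ to 3′ on the strand of the gene. The windows are chr1:73015900-73016049 for Tnp1, chr16:10796824-10796973 for Prm1, chr16:10792106-10792255 for Prm2 and chr16:10788656-10788805 for Tnp2, all on the minus strand, and chr11:94967443-94967592 on the plus strand for Hils1. Capitals mark matches on either strand to TGANNTCA, a form of the cAMP response element to which CREM binds, or to TATAA, the core of a TATA box. These patterns were picked after the sequences had been seen.
Tnp1: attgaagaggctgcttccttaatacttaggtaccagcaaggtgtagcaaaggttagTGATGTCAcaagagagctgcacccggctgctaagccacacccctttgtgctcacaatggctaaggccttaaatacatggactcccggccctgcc
Prm1: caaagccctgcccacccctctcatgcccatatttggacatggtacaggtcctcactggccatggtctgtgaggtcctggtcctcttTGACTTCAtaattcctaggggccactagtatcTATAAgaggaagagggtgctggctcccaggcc
Prm2: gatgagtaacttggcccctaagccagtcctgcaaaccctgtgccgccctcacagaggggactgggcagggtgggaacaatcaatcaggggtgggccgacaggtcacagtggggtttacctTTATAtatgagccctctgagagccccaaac
Tnp2: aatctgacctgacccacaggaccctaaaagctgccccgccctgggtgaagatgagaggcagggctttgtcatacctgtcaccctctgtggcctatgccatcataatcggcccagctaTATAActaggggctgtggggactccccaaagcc
Hils1: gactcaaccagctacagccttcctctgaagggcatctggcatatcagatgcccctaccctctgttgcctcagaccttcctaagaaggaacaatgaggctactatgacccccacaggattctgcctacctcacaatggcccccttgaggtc
The pattern TGANNTCA occurred as TGATGTCA in Tnp1, starting 94 bases before the start, and as TGACTTCA in Prm1, starting 64 bases before it. TATAA lay 32 bases before the start in Prm1 and 33 in Tnp2, and on the other strand 30 in Prm2. Hils1 had neither pattern in this window. The promoter table held 31 of the 39 genes, and Crem, Acr, Adam2, Adam3, Odf1, Cabyr, Catsper1 and Oaz3 were absent from it. TGANNTCA was in the windows of 13 of these 31 genes and of 8.37% of all 32851 promoters, and TATAA in 3 of 31 and 14.2% of all. A gene counted when any of its windows matched, while the shares of all are per window. These figures therefore differ in unit, and whether the list holds more matches was not tested. A match is a description of letters and not a binding site.

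Some of the genes are neighbors in the genome, as their probes show (build mm9). The probes of Tnp2 (chr16:10788029-10788088), Prm2 (chr16:10791549-10791608) and Prm1 (chr16:10796450-10796509) follow each other with gaps of 3.46 and 4.84 kb. Tssk1 and Tssk2, also on chromosome 16, lie 4.67 kb apart, and Actl7b and Actl7a on chromosome 4 lie 4.09 kb apart. Tnp1 (chr1:73061834-73061893) and Hils1 (chr11:94829603-94829662) lie elsewhere.

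The arrays themselves differed in ways that bear on the list. The 75th percentile of the raw signal was 576 to 650 scanner units in culture and 796 to 1093 in sorted cells, and 55.3% to 65.9% of all probes were detected per array. Among probes detected on all 6 sorted arrays, Fgf5-/- replicate 1 was the lowest for 39.2% and the highest for 25.8%, so this array stood apart from the others. The germ cell gene Ddx4 had levels between 5.03 and 5.28 on all 10 arrays. Gfra1, the gene that defines the sort, had levels of 0.58 to 0.89 in sorted cells and -4.07 to -0.52 in culture. Kit and Stra8, which mark differentiating spermatogonia, were also higher in sorted cells. Kit was at 1.6 to 2.13 against -1.09 to -0.80 in culture, and Stra8 at 5.76 to 6.14 against 2.57 to 3.28. The list of 15 genes of such cells, which holds both, did not rise as a whole. Of these 15 genes, 6 were higher in sorted cells, with a median log2 difference of -0.01. The part of Kit and Stra8 in the differences below was not tested.

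Genes of the list were detected in every sample, and more of them in sorted cells. A further list of 45 spermatid genes, taken up below, did not show this. It had 26 to 27 genes detected per cultured array and 23 to 35 per sorted array. Of the 39 genes, 24 and 21 were detected in GS cells with FGF5 and 23 and 27 in those without. In sorted WT cells 35, 29 and 28 were detected, and in Fgf5-/- cells 32, 31 and 33. The sorted arrays thus lay above the cultured arrays without overlap, although by signal alone, counting genes above the lowest signal detected on the array, the ranges of 24 to 28 in culture and 27 to 35 in sorted cells overlapped, and the share of all probes detected was 55.3% to 65.9% in sorted cells and 62.8% to 65.2% in culture. The protamines Prm1 and Prm2 and the transition protein Tnp1 were among 19 genes detected on all 10 arrays.

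At the other end, 3 genes were detected nowhere. These were Odf1, which encodes a main protein of the outer dense fibers, Acrv1, a protein of the acrosomal vesicle, and Catsper1, a pore subunit of the sperm calcium channel. Hils1, a linker histone of spermatids, and Akap3, an anchoring protein of the fibrous sheath, were detected on all 6 sorted arrays and on 0 of 4 cultured ones. A further 7 genes (Actl7b, Gapdhs, Oaz3, Smcp, Tnp2, Tssk3 and Tssk6) were detected on all sorted arrays and on some cultured ones. The remaining 8 (Actl7a, Adam2, Adam3, Catsper3, Ropn1, Spaca3, Tssk1 and Tssk2) were missed on part of the sorted arrays. WT replicate 1 was the only array to show Spaca3 and Fgf5-/- replicate 2 the only one to show Catsper3.

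**Figure D1:**
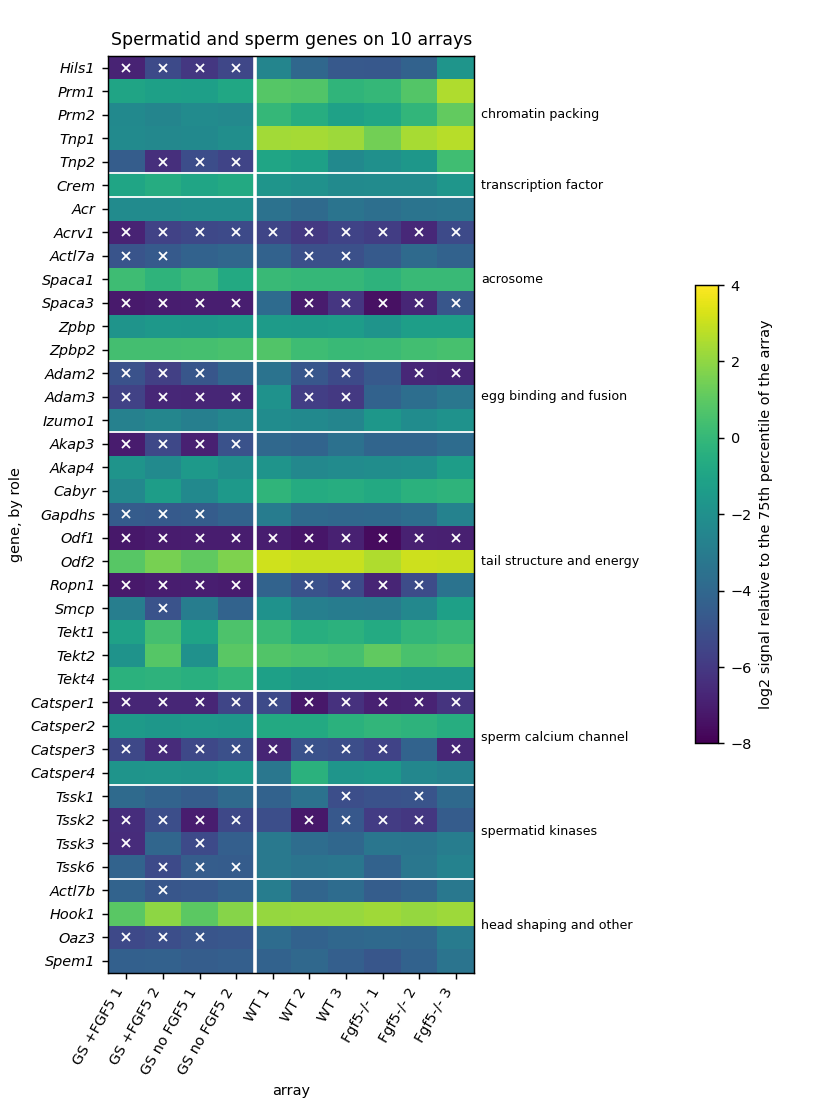
Heatmap of the log2 signal of the 39 genes (rows, by role) on the 10 arrays (columns, cultured left of the white line and sorted right), relative to the 75th percentile of each array, with a white cross where the probe was not well above background. Crosses fill the rows of Odf1, Acrv1 and Catsper1, while Tnp1, Prm1 and Prm2 are brighter on every sorted array than on every cultured one.

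Sorted and cultured cells were compared as the mean of both sorted groups against the mean of both cultured groups. All 5 chromatin packing genes were higher in sorted cells, led by the transition proteins Tnp1 and Tnp2. Genes of the tail and the spermatid kinases were higher in part. Acr, Crem and Tekt4 were lower. In limma, 16 of the 29 genes tested were called higher (adjusted p under 0.05) and 3 lower, where 26.7% and 41.8% of all 33918 tested probes were called. Passing the filter in this comparison favored genes that were high in sorted cells. For the 19 genes detected on all 10 arrays, 8 were called higher and 3 lower, against 29.3% and 35.6% of the 27234 probes of that kind. At least 2-fold apart were 14 genes higher and 3 lower, against 10.7% and 24% of all probes, and without overlap between the materials 13 were higher and 3 lower, against 21.8% and 35.2%. These counts too were raised by the filter. Of the 19 genes detected on all 10 arrays, 7 were at least 2-fold higher and 3 lower. Without overlap, 7 of these 19 were higher and 3 lower. The matching shares of probes of that kind were not counted.

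The median difference was 0.95 over the 29 genes and -0.23 over all probes, and it was 0.20 and -0.08 over those detected on all arrays. The median of all probes moved with the scaling, from -0.57 on the log2 scale with the percentile over detected probes to -0.12 with quantile normalization. Under all 6 settings of scaling, background correction and outlier spots, 8 genes were called higher (Cabyr, Catsper2, Odf2, Prm1, Prm2, Tnp1, Tnp2 and Tssk3) and 3 lower (Acr, Crem and Tekt4). Of these, Tnp2 and Tssk3 were detected on only 1 and 2 of the 4 cultured arrays. They passed the filter through the sorted side alone, where they were high. All 6 settings shared that filter, so they are no separate check of it.

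Tnp1 encodes the main transition protein, which displaces histones before protamines arrive. Its levels were -2.25 and -2.42 in GS cells with FGF5 and -2.32 and -2.05 without, against 2.35, 2.36 and 2.23 in WT and 1.45, 2.45 and 2.72 in Fgf5-/- cells. The lowest sorted array was thus far above the highest cultured one. The difference was 4.52 on the log2 scale (SE 0.23), or 22.9-fold, with an adjusted p of 2.06e-06 in limma, and it was 4.75 relative to the median of all probes.

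Tnp2 encodes the second transition protein and lies beside the protamine genes. Its levels were -4.47 and -6.39 with FGF5 and -5.16 and -5.52 without, and it was detected on 1 of these 4 arrays, the first with FGF5. In sorted cells its levels were -0.93, -1.19 and -2.32 in WT and -1.96, -1.66 and 0.34 in Fgf5-/-. The difference of 4.10 (SE 0.55, adjusted p = 0.000241 in limma) was taken mostly against background, and it was 1.96 under another background correction (normexp).

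Prm1 and Prm2 encode the protamines. Prm1 had levels of -0.99, -1.16, -1.22 and -0.86 on the cultured arrays, 0.84, 0.76 and -0.13 in WT and -0.03, 0.77 and 2.56 in Fgf5-/- cells. Prm2 had -2.31, -2.54, -2.19 and -2.35 in culture, 0.01, -0.51 and -1.15 in WT and -0.90, -0.09 and 1.13 in Fgf5-/- cells. Neither gene overlapped between the materials, and both spread more widely among sorted than among cultured arrays. Prm1 was 3.61-fold higher in sorted cells (log2 difference 1.85, SE 0.46, adjusted p = 0.00632 in limma) and Prm2 4.28-fold (2.10, SE 0.38, adjusted p = 0.00119).

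Hils1 was not well above background in culture, where its levels were -6.82, -5.31, -6.05 and -5.44. On the sorted arrays it had -2.55, -3.99 and -4.65 in WT and -4.71, -4.21 and -1.74 in Fgf5-/-. The log2 difference of 2.26 (adjusted p = 0.0136 in limma) was taken against these levels below detection. Measured against the lowest detectable signal, Hils1 was at least 2.39-fold higher in sorted cells. Under normexp the difference was 0.56, less than this bound, and it was not called (adjusted p = 0.141). The call was also lost without the first array with FGF5.

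Crem encodes the activator of many postmeiotic genes, and it ran the other way. Its levels were -0.94 and -0.57 with FGF5, -0.96 and -0.69 without, -1.74, -1.92 and -2.25 in WT and -2.19, -2.21 and -1.69 in Fgf5-/- cells. Every cultured array was above every sorted one, and sorted cells were 2.31-fold lower (log2 difference -1.21, SE 0.16, adjusted p = 0.000231 in limma). A second probe of Crem, detected on all arrays, gave -1.30. The gene makes both activator and repressor forms, and the probes were not assigned to forms here.

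**Figure D2:**
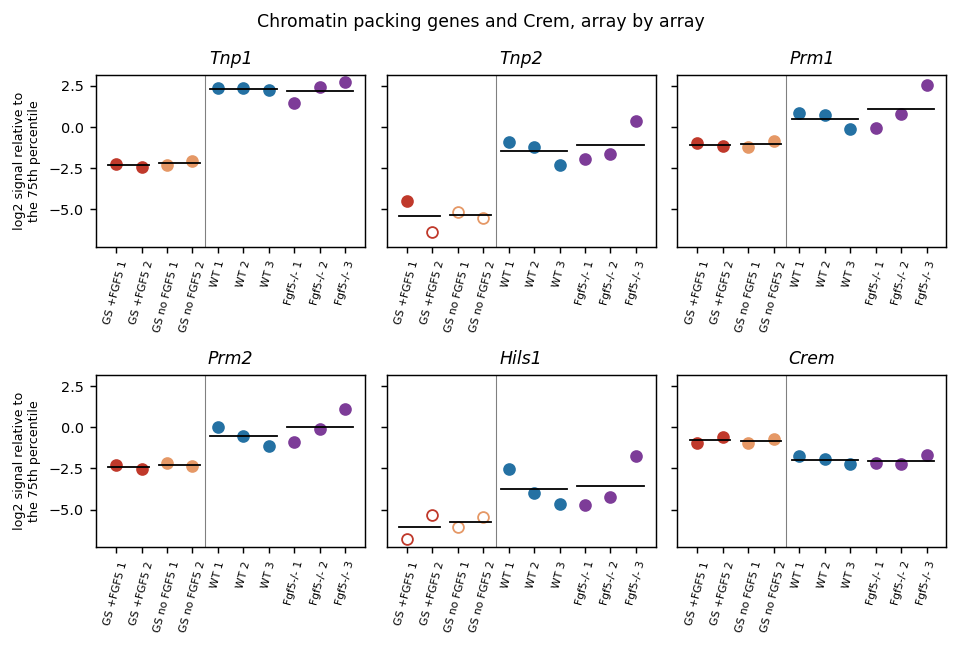
Log2 signal relative to the 75th percentile (vertical axis) of the 5 chromatin packing genes and Crem on each array (horizontal axis), with filled points for arrays where the probe was well above background, open points where it was not, and black lines for group means. The 5 packing genes are higher on the sorted arrays, Crem is lower there, and Fgf5-/- replicate 3 is the highest array for each of the 5.

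Of the 4 acrosome genes tested, 1 was called. Acr, the gene of the acrosomal protease acrosin, had levels of -2.22, -2.22, -2.11 and -2.12 in culture against -3.46, -3.83, -3.40, -3.62, -3.40 and -3.31 on the sorted arrays in order. It did not overlap and was 2.52-fold lower in sorted cells (log2 difference -1.33, SE 0.12, adjusted p = 2.58e-05 in limma). Spaca1, a membrane protein of the acrosome, ranged from -0.72 to 0.26 in culture and from -0.25 to 0.15 in sorted cells. Zpbp and Zpbp2 encode proteins that bind the coat of the egg. Zpbp had levels of -1.80, -1.61, -1.67 and -1.44 in culture and of -1.42, -1.46, -1.38, -1.77, -1.26 and -1.28 in sorted cells, a difference of 0.20 (SE 0.13, 95% interval -0.09 to 0.50). Zpbp2 had 0.40, 0.40, 0.48 and 0.55 in culture and 0.74, 0.29, 0.14, 0.20, 0.35 and 0.51 in sorted cells. Acrv1, Actl7a and Spaca3 were not tested in this comparison, since they were missed on arrays of both materials.

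Among genes of egg binding and fusion, Izumo1, which encodes the sperm protein that meets the egg receptor, was the only one tested. Its levels were -2.71, -2.47, -2.83 and -2.46 in culture, -2.17, -2.29 and -2.52 in WT and -1.66, -2.15 and -1.86 in Fgf5-/- cells. The materials overlapped, and the difference of 0.51 (SE 0.14, adjusted p = 0.0109 in limma) was lost when the percentile was taken over detected probes, where it was 0.17 (adjusted p = 0.562). Adam3, needed for sperm to bind the egg coat, was detected on 4 of 6 sorted and 0 of 4 cultured arrays, and WT replicate 1 held its highest level, -1.88. Adam2, a subunit of fertilin, was detected on 3 of the 10 arrays.

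Of the 9 tail genes tested, 5 were called higher in sorted cells and 1 lower, beside 26.7% and 41.8% of all tested probes. By sign, 7 of the 9 were higher. Akap3, Smcp and Gapdhs, which are among the 5, passed the filter through the sorted side alone. Odf2 encodes an outer dense fiber protein that is also part of centrioles in other cells. Its levels were 0.90, 1.53, 1.06 and 1.66 in culture and 3.12, 3.00, 2.98, 2.59, 3.07 and 3.05 in sorted cells, which was a 3.20-fold difference without overlap (log2 difference 1.68, SE 0.18, adjusted p = 6.84e-05 in limma). Cabyr, a calcium-binding protein of the fibrous sheath, had -2.40, -1.34, -2.30 and -1.54 in culture and -0.17 to -0.72 in sorted cells, and was 2.76-fold higher (log2 difference 1.47, SE 0.25). Akap3 was at least 1.96-fold higher, with levels of -7.10 to -5.00 below detection in culture and of -4.15 to -3.54 in sorted cells, but under normexp the log2 difference was 0.28, less than this bound, and it was not called (adjusted p = 0.0667). Smcp, of the mitochondrial capsule, and Gapdhs, the sperm form of a glycolytic enzyme, differed by 1.35 and 0.95, both called, with ranges of 0.47 to 1.78 and 0.14 to 1.46 over the 6 settings. Smcp had -2.88, -4.91, -2.91 and -4.20 in culture and -1.90, -2.81, -2.95, -3.00, -2.38 and -1.20 in sorted cells, so the materials overlapped. Each lost the call under normexp and under the percentile over detected probes, and Smcp kept it in 4 of the 11 fits that left out arrays, and lost it without WT replicate 1 or 2, without Fgf5-/- replicate 2 or 3, and without either cultured sample numbered 2. The call of Gapdhs was also lost without the first sample lacking FGF5.

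The tektins, filament proteins of the axoneme, did not move together. Tekt4 was lower in sorted cells, with -0.34, -0.22, -0.43 and -0.06 in culture against -1.17, -1.45, -1.37, -1.39, -1.52 and -1.56, a log2 difference of -1.14 (SE 0.11, adjusted p = 4.40e-05 in limma). Tekt1 was at -1.11, 0.41, -1.06 and 0.67 in culture and between -0.66 and 0.14 in sorted cells. Tekt2 was at -1.83, 0.84, -1.91 and 0.93 in culture and between 0.45 and 1.06 in sorted cells. For both, the sorted levels lay within the range of the cultured ones or next to its top, and neither was called (adjusted p = 0.893 and 0.120). Akap4, the main protein of the fibrous sheath, had -1.80, -2.27, -1.49 and -2.04 in culture and -1.80, -2.41, -2.20, -2.10, -2.02 and -1.33 in sorted cells, a difference of -0.08 (95% interval -0.57 to 0.41) whose sign changed with the scaling.

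Catsper2, a pore subunit of the calcium channel, was higher in sorted cells by its brightest probe, with -1.44, -1.66, -1.57 and -1.63 in culture and -0.72, -0.71, -0.33, -0.08, -0.26 and -0.52 in sorted cells (log2 difference 1.14, SE 0.13, adjusted p = 9.72e-05 in limma). Its second probe, also detected on all 10 arrays, gave -0.33 (adjusted p = 0.141), so the probes of this gene disagreed. Catsper4 had -1.79, -1.72, -1.82 and -1.50 in culture, -3.23, -0.33 and -1.72 in WT and -1.60, -2.43 and -2.66 in Fgf5-/- cells, with one of the widest ranges among sorted arrays.

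The spermatid kinases Tssk3 and Tssk6 were higher in sorted cells. Tssk3 ranged from -6.50 to -4.02 in culture, detected on 2 of 4 arrays, and from -3.98 to -2.92 in sorted cells, a log2 difference of 1.65 (SE 0.45, adjusted p = 0.00992 in limma) that ranged from 0.37 to 2.13 over the 6 settings above. Tssk6 ranged from -5.31 to -4.18, detected on 1 of 4, and from -4.25 to -2.69, a difference of 1.28 (SE 0.32, adjusted p = 0.00645) that ranged from 0.28 to 1.79 and was not called under normexp (adjusted p = 0.0912). Tssk1, the neighbor of Tssk2, had -3.83, -4.19, -4.47 and -3.83 in culture and -4.25, -3.48, -5.13, -4.96, -4.86 and -3.91 in sorted cells, where it was detected on 4 of 6 arrays. It differed by -0.35 (95% interval -1.14 to 0.43), and the sign of this value turned under quantile normalization (0.17), while it was called lower under normexp.

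Hook1, which acts in shaping the sperm head through the manchette, had 0.95, 1.97, 0.99 and 1.81 in culture and 2.11, 2.14, 2.17, 2.30, 2.11 and 2.22 in sorted cells. All sorted arrays were above the cultured ones, closely so for the samples numbered 2, and the log2 difference was 0.75 (SE 0.22, adjusted p = 0.0151 in limma). The cultured levels went by sample number, which the fit did not take into account. The call was lost without the first sample lacking FGF5 and with the percentile over detected probes. Oaz3, a testis form of ornithine decarboxylase antizyme, rose by 1.19 (SE 0.20, adjusted p = 0.000807 in limma), detected on 1 of 4 cultured arrays, with a range of 0.19 to 1.75 over the 6 settings and no call under normexp (adjusted p = 0.146). Spem1, needed to shed cytoplasm, had -4.32, -4.29, -4.44 and -4.38 in culture and -4.23, -3.95, -4.38, -4.81, -4.23 and -3.37 in sorted cells, a difference of 0.19 (95% interval -0.37 to 0.76).

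**Figure D3:**
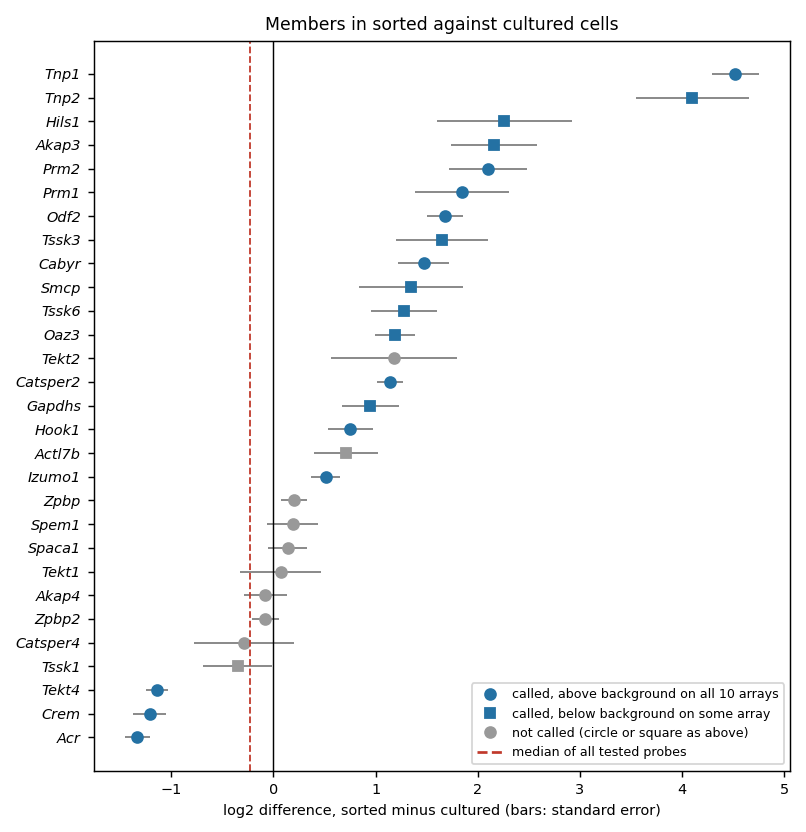
Log2 difference of sorted minus cultured cells (horizontal axis) with its standard error for the 29 genes tested, in blue where called in limma and as squares where the probe was not detected on some array, with a dashed line at the median of all tested probes, -0.23. Tnp1 and Tnp2 lie far to the right of the others, and Tekt4, Crem and Acr to the left.

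Other gene lists give the setting of these values. Their called counts are to be read beside the 26.7% of all tested probes called higher and the 41.8% called lower. A further list of 45 spermatid genes had 27 tested, of which 7 were called higher and 10 lower in sorted cells, with a median difference of -0.07. Its summed signal, in multiples of the 75th percentile, overlapped between the materials, at 25.7 to 35.5 in culture and 28.2 to 44.9 in sorted cells. Of 30 genes of spermatocytes, 29 were tested, and 14 were called higher and 5 lower (median 0.36). Of 18 genes of undifferentiated spermatogonia, 17 were tested, and 11 were called higher and 4 lower (median 1.42). Of 15 genes of differentiating spermatogonia, all were tested, and 2 were called higher and 4 lower (median -0.01). Of 18 genes of Sertoli cells, the supporting cells of the tubule, 15 were tested, and 8 were called higher and 4 lower (median 0.62). The summed signal of this list, in multiples of the 75th percentile, was 23.6 to 34.5 in culture and 36.1 to 61.6 in sorted cells, with 12 to 14 of 18 genes detected per cultured and 14 to 16 per sorted array. Amh and Fshr were the only genes of the Sertoli list detected on 0 of 10 arrays. The summed signal of the 39 genes was 11.7 to 17.6 in culture and 24.4 to 39.7 in sorted cells. The part of Sertoli cells in the differences was not tested. Lists of Leydig cells, peritubular cells and fibroblasts, endothelial cells and macrophages had lower summed signals in sorted cells, with respective ranges of 1.25 to 2.63, 5.86 to 7.28, 4.99 to 7.16 and 1.67 to 3.00 there and of 5.62 to 7.19, 8.19 to 17.6, 13.1 to 21.4 and 4.25 to 5.13 in culture. Called higher and lower were respectively 1 and 2, 3 and 8, 4 and 3, and 1 and 5 of the genes tested, so the endothelial genes ran both ways (median 0.22). Of these lists, 3 to 4 of 8, 9 to 13 of 14, 8 of 10 and 6 to 8 of 11 genes were detected per sorted array. Cyp11a1, Hsd3b6 and Lhcgr (Leydig cells), Emcn and Tie1 (endothelium) and C1qc and Lyz2 (macrophages) were detected on 0 of 10 arrays, cultured ones included.

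In sorted cells the loss of Fgf5 left no gene of the list with a called difference. Of the 30 genes tested, 0 passed an adjusted p of 0.05 in limma, as did 0% of all 30283 probes, and 1 had an unadjusted p under 0.05, against 6.76% of all probes. At least 2-fold apart were 0 genes in either direction, against 0.502% of probes higher and 0.466% lower in Fgf5-/-. Without overlap, 1 gene was higher and 0 lower, against 7.01% and 9.18%. The median difference was 0.10 over the list and -0.03 over all probes, with 18 genes higher and 12 lower by sign.

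Izumo1 was the gene without overlap. Its lowest Fgf5-/- level, -2.15, was next to its highest WT level, -2.17, and the difference was 0.44 (95% interval 0.04 to 0.83, unadjusted p = 0.0363, adjusted p = 0.729 in limma). With the authors' table and with the percentile over detected probes the genotypes overlapped. The other largest positive differences were in Adam3 (0.85, 95% interval -1.76 to 3.46), Prm1 (0.61, -0.97 to 2.20), Prm2 (0.59, -0.72 to 1.90) and Actl7a (0.55, -0.16 to 1.26). Adam3 had levels of -1.88, -5.78 and -5.99 in WT, where it was detected on the first array alone, and of -4.21, -3.66 and -3.24 in Fgf5-/- cells. Actl7a, an actin-like protein of the acrosome, had -4.22, -5.07 and -5.06 in WT and -4.62, -3.87 and -4.23 in Fgf5-/- cells.

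The largest negative differences were in Catsper4 (-0.47, 95% interval -2.18 to 1.25), Actl7b (-0.34, -1.34 to 0.67), Tekt4 (-0.16, -0.45 to 0.13), Odf2 (-0.13, -0.51 to 0.24) and Tssk6 (-0.11, -1.02 to 0.79). Actl7b, a second actin-like protein of spermatids, had -2.93, -4.10 and -3.74 in WT and -4.46, -4.13 and -3.18 in Fgf5-/- cells. Crem differed by -0.06 (-0.54 to 0.42), Tnp1 by -0.10 (-0.87 to 0.67) and Tnp2 by 0.38 (-1.23 to 2). All these intervals include 0, and those of Catsper4, Actl7b, Tssk6 and Tnp2 also include a 2-fold change.

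The spread within the genotypes followed single arrays. Of the 28 genes detected on all 6 sorted arrays, 14 had their highest level on Fgf5-/- replicate 3 and 7 on WT replicate 1, or 75% together. For all probes detected on these arrays the shares were 15.8% and 21.5%, or 37.3% together. Fgf5-/- replicate 3 and WT replicate 1 were picked as the highest arrays for these same genes, which raises their joint share. In the further list of spermatid genes these arrays were highest for 14 of 22, in that of spermatocytes for 15 of 29, in that of differentiating spermatogonia for 11 of 15 and in that of Sertoli cells for 10 of 14. Undifferentiated spermatogonia genes, by contrast, had 6 of 17 there. Within the lists the 2 arrays differed. Of the Sertoli genes, 7 were highest on WT replicate 1 and 3 on Fgf5-/- replicate 3. Of the spermatocyte genes, 9 were highest on WT replicate 1, 6 on Fgf5-/- replicate 3 and 8 on Fgf5-/- replicate 1. Fgf5-/- replicate 1, which stood apart over all probes, was the lowest for 11 of the 28 genes, or 39.3%, against 39.2% of all probes.

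The chromatin packing genes had some of the widest ranges. Fgf5-/- replicate 3 exceeded the median of the 6 sorted arrays by 2.36 for Hils1, 1.79 for Prm1, 1.77 for Tnp2 and 1.43 for Prm2 on the log2 scale, but by 0.37 for Tnp1. WT replicate 1 exceeded it by 1.55 for Hils1, 0.49 for Tnp2, 0.31 for Prm2 and 0.07 for Prm1. Smcp and Gapdhs were also highest on Fgf5-/- replicate 3, by 1.39 and 1.06, while Hook1 had the narrowest range of the list, 0.19. The summed Sertoli signal was 58.0 on Fgf5-/- replicate 3 and 61.6 on WT replicate 1, against 36.1 to 57.1 on the other sorted arrays. Its part was not tested.

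Leaving out Fgf5-/- replicate 3 turned the median difference between genotypes from 0.10 to -0.12, changed the sign of 7 of the 30 genes, and left 11 with a positive one. Prm1 then differed by -0.11, Tnp2 by -0.33 and Hils1 by -0.73. Leaving out Fgf5-/- replicate 1 moved the median to 0.25 and Prm1 to 1.18. The sign of the median also turned without WT replicate 3 (-0.02) and under normexp (-0.01). In none of these fits was a gene of the list called. The comparison of sorted with cultured cells had 15 genes called higher and 3 lower without Fgf5-/- replicate 3, 18 and 3 without Fgf5-/- replicate 1, and 15 and 3 when Fgf5-/- replicate 3 and WT replicate 1 were both left out.

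**Figure D4:**
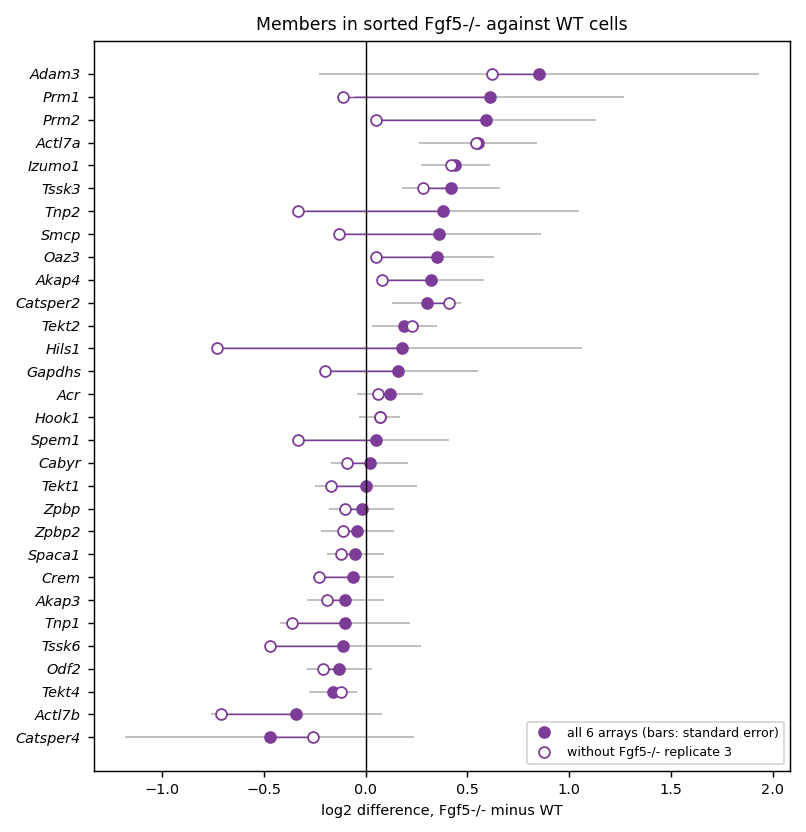
Log2 difference of Fgf5-/- minus WT sorted cells (horizontal axis) for the 30 genes tested, with all 6 arrays (filled points, bars for the standard error) and without Fgf5-/- replicate 3 (open points). Open points of Prm1, Tnp2 and Hils1 lie left of 0, at -0.11, -0.33 and -0.73, while those of Izumo1 and Actl7a stay beside the filled ones.

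In GS cells, FGF5 for 24 hr gave no called difference in the list either. Of the 23 genes tested, 0 passed an adjusted p of 0.05 in limma, as did 0% of all 34608 probes, and 1 had an unadjusted p under 0.05, against 2.55% of probes. At least 2-fold apart were 0 genes, against 0.87% of probes higher and 0.439% lower with FGF5. Without overlap, 1 gene was higher and 3 were lower with FGF5, against 8.17% and 14.6% of all probes. The median difference was -0.04 in the list and -0.03 over all probes.

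The gene with the unadjusted p was Actl7a. Its levels were -4.86 and -4.62 with FGF5, where it was not well above background, and -4.24 and -4.02 without. The difference was -0.61 (95% interval -1.10 to -0.12, unadjusted p = 0.0247, adjusted p = 1 in limma), and it was -0.17 under normexp. The other genes without overlap were Spem1, at 0.10 (95% interval -0.30 to 0.51), and Acr and Zpbp2, at -0.10 (-0.51 to 0.30) and -0.11 (-0.52 to 0.30).

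The other largest positive differences with FGF5 were in Spaca1 (0.29, 95% interval -0.68 to 1.27), Tssk1 (0.14, -0.61 to 0.90), Crem (0.07, -0.50 to 0.64) and Hook1 (0.06, -1.15 to 1.27), and the other largest negative ones in Smcp (-0.34, -2.47 to 1.78), Akap4 (-0.27, -1.02 to 0.48), Prm2 (-0.16, -0.63 to 0.31) and Tekt1 (-0.16, -2.20 to 1.89). Prm1 differed by -0.03 and Tnp1 by -0.15, with intervals of -0.56 to 0.49 and -0.64 to 0.34. The intervals of Prm1, Prm2, Tnp1, Crem and Tssk1 lie within 1 log2 unit of 0, while those of Spaca1, Hook1, Smcp, Akap4 and Tekt1 reach beyond it.

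Several genes differed more between samples numbered 1 and 2 than between the conditions. Tekt2 was higher in sample 2 than in sample 1 by 2.66 with FGF5 and by 2.84 without, and Tekt1 by 1.52 and 1.74. With against without FGF5, Tekt2 differed by 0.09 between the samples numbered 1 and by -0.09 between those numbered 2. Cabyr, Hook1 and Odf2 were higher in sample 2 by 1.06 and 0.76, 1.03 and 0.81, and 0.63 and 0.60, and Akap4 and Spaca1 were lower, by -0.47 and -0.55 and by -0.46 and -0.91. Of the 20 genes detected on all 4 cultured arrays, 2 (Tekt1 and Tekt2) were over 1 log2 unit higher in sample 2 under both conditions, and so were 0.827% of the 32650 such probes. The labels do not say what the numbers stand for. The summed signal of the peritubular cell and fibroblast list was 16.7 and 17.6 in the samples numbered 1 and 8.19 and 9.25 in those numbered 2, and its part was not tested.

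**Figure D5:**
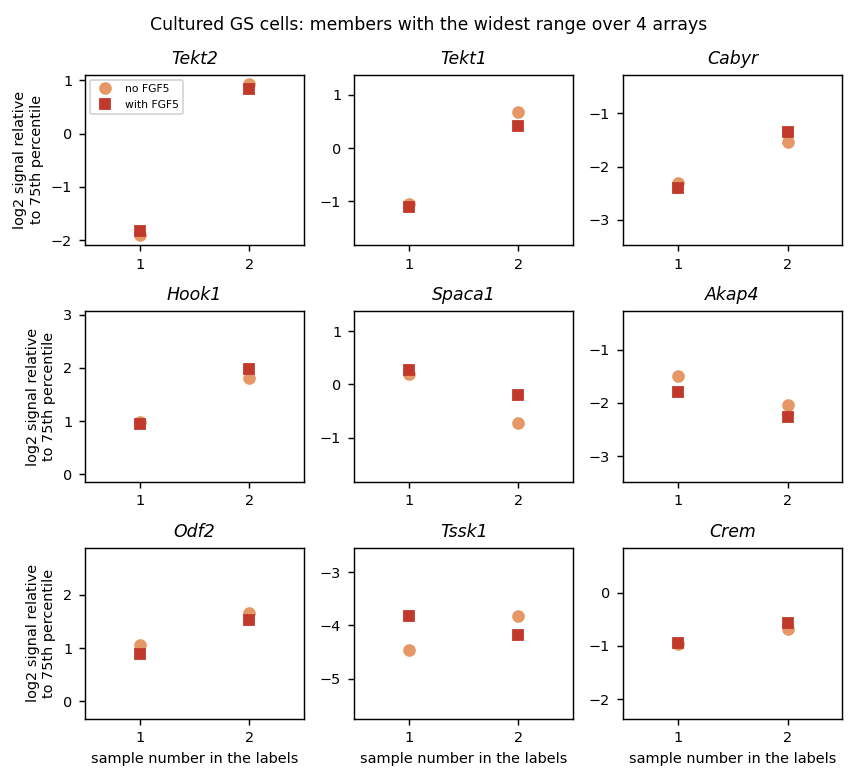
Log2 signal relative to the 75th percentile (vertical axis, same span in each panel) in the 4 GS cell samples by their number in the labels (horizontal axis), without FGF5 (circles) and with it (squares), for the 9 genes with the widest range among those detected on all 4 arrays. Tekt2 and Tekt1 are higher in both samples numbered 2, and circles and squares of the same number nearly coincide, with Tssk1 as the clearest exception.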

How the data were processed

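RNA of 4 cultured and 6 sorted samples was hybridized with Cy3 to arrays of 62976 spots. The authors deposited the scanner output, in which the intensity of each spot is background-subtracted on a linear scale (Feature Extraction 10.7.3.1 per the submitters' processing notes), and a table of log2 values that the authors floored and shifted to the 75th percentile in GeneSpring. Here, spots marked as uneven or as outliers were left out, log2 values were averaged per probe (55681 probes), and the 75th percentile of each array was subtracted. Dim probes are the ones most open to background, so testing a probe required that all arrays on 1 or more sides of a comparison showed it well above background. Where a side had no such array, a fold was given as at least the mean of the bright side over the dim side, set per array to the lowest detectable signal where the probe lay under it. Groups came from the sample titles.

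Tests used limma 3.58.1 in R 4.3.3 (lmFit, eBayes, two-sided, Benjamini-Hochberg over all tested probes, threshold 0.05), and were tested on simulated data. The culture (2 against 2) and the genotypes (3 against 3) were fitted apart, and sorted against cultured cells in a fit of 4 groups. The members and lists were chosen with earlier results of these data known. Given by array were Prm1, Prm2, Tnp1, Tnp2, Crem, genes detected on all 10 arrays, and the 5 largest increases and decreases in each comparison. Alternatives were quantile normalization, normexp (offset 50), the authors' table, the percentile over detected probes, no or a strict filter, outlier spots kept, the mean of a gene's probes, an intensity trend, the replicate number as a block, and leaving out each array. Accessions of 38 of 39 genes matched RefSeq names.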

Additional observations from a re-analysis of the deposited data

Results flagged for a closer look

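On the 6 sorted arrays, 3 of the 28 genes detected on all of them had 1 array far from the rest by Dixon's ratio (gap to the nearest array over the whole range, against Dixon's 95% critical value), where chance flags about 1 in 20. Prm1 was at 2.56 on Fgf5-/- replicate 3 with the next array at 0.84, a ratio of 0.639. Odf2 was at 2.59 on Fgf5-/- replicate 1 with the next at 2.98, a ratio of 0.744, and Spaca1 was at -0.25 on the same array with the next at 0.01, a ratio of 0.645. The ratio was taken over both genotypes, and on the 4 cultured arrays 0 of 20 genes passed the critical value.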

How the results depend on the processing

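No gene of the list was called in culture or between genotypes under any alternative run. For sorted against cultured cells, called genes numbered 19, and 11 under the strict filter. Called higher were 16, with 10 under normexp and 8 under the strict filter. Genes at least 2-fold apart were 8 under normexp and 10 under the strict filter, which also left 10 without overlap. The median of 0.95 became 1.24 under quantile normalization, 0.23 under normexp, 0.61 under the percentile over detected probes and 0.20 under the strict filter. Fewer genes were tested under the strict filter, and the cause of the other shifts was not tested.

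With 1 array left out, called genes in that comparison numbered 17 to 21, called higher 14 to 18 and the median was 0.62 to 1.07. Between genotypes, genes without overlap numbered 0 with the authors' table and with the percentile over detected probes and 2 with gene means over probes, and 1 gene was 2-fold apart without the filter. With 1 array left out these counts were 2 to 5 without overlap and 0 to 3 for 2-fold, and without both WT replicate 1 and Fgf5-/- replicate 3, chosen after seeing the data, they were 7 and 1. In culture, 11 genes did not overlap without the filter, and with 1 array left out 13 to 17 did not, 1 to 3 were 2-fold apart and the median was -0.23 to 0.13. Groups of fewer arrays overlap less often by themselves. The shares of all probes were not counted under these alternatives, so the counts say nothing about the genes in particular.

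Signs turned as follows. With the mean of a gene's probes Crem was -0.36 in culture and 0.26 between genotypes, with normexp Adam3 was -0.03 between genotypes, and with quantile normalization Tssk1 was 0.17 in sorted against cultured cells. Catsper4 there ranged from -0.65 to 0.08 with 1 array left out and was 0.19 without both arrays. Between genotypes with 1 array left out, the differences ranged from -1.20 to 0.24 for Catsper4, -0.11 to 1.18 for Prm1, -0.36 to 0.28 for Tnp1, -0.33 to 0.82 for Tnp2 (-0.06 without both arrays), -0.22 to 0.02 for Odf2, -0.47 to 0.31 for Tssk6 and -0.23 to 0.05 for Crem. In culture they ranged from -0.17 to 0.75 for Spaca1, -0.18 to 0.46 for Tssk1, -0.12 to 0.26 for Crem, -0.45 to 0.57 for Hook1, -1.36 to 0.67 for Smcp, -1.02 to 0.71 for Tekt1 and -0.21 to 0.14 for Prm1.

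The replicate numbers were used as a replicate block in a further fit, with 0 genes called in culture and 0 between genotypes, where the smallest adjusted p of the list was 0.526 and 0.887 (limma), against 1 and 0.729 without the block. No such fit was run for sorted against cultured cells. Deviations of equally numbered samples correlated with r = 0.636 in culture, where 2 pairs cannot settle a pairing. In sorted cells r was -0.417, -0.144 and -0.144 for equally numbered samples and -0.471 to 0.473 for unequally numbered ones. With 3 samples per genotype these values cannot settle a pairing either.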
